A study of Mus musculus with 2 samples.

Results

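Among islet cells of Isl1CKO mice, 370 cells held transcripts of Hhex, the delta cell transcription factor, while less than 1% of their UMIs came from somatostatin, from glucagon and from insulin transcripts. They are called Sst-low Hhex cells here. Barcodes counted as cells had at least 1000 unique molecular identifiers (UMIs, 1 per captured transcript), at least 500 genes and at most 15% mitochondrial UMIs. Sst-low Hhex cells also had at least 1 Hhex UMI, 0 UMIs of Irx1 and Irx2, and stayed under that limit for Sst, for Gcg and for Ins1 and Ins2 together, while Iapp and other hormones were not limited. They were 370 of 8231 Isl1CKO cells, and the 2 libraries held 12450 cells in all. They were set against 722 control Hhex Sst cells, with at least 1 Hhex UMI and at least 5% of UMIs from Sst. Isl1CKO mice carried Neurod1 Cre/+ with Isl1f/f, and control mice carried Neurod1 Cre/+ with Isl1f/+, so that both had the Cre driver, which acts in endocrine cells, and a tdTomato reporter. The mice were 1 month old, and tdTomato+ cells of 3 animals per genotype were pooled into 1 droplet library, labelled female and male for Isl1CKO and males for control. Actinomycin D, which blocks transcription, was present during dissociation. With 1 library per genotype no difference has a replicate check, and all intervals cover counting error only.

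Delta cells of the islet secrete somatostatin, which restrains insulin and glucagon release from neighbouring beta and alpha cells. The homeodomain factor Hhex is needed in mouse islets to keep delta cells as delta cells. Isl1 is a LIM-homeodomain factor that endocrine precursors switch on as they mature, and it is known to act at hormone genes, somatostatin among them. A cyclic AMP response element, which CREB binds, was first described in the somatostatin promoter.

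Promoters of 3 genes are shown: Sst, the hormone the cells were chosen for lacking, and Cartpt and Tac1, the peptide genes with the highest ratios over control Hhex Sst cells. Each is the stretch of 250 bases before the RefSeq start, on the gene's own strand, from GRCm38.p6, and capitals mark the cyclic AMP response element TGACGTCA and the homeodomain core TAAT or its reverse complement ATTA. The stretches lie at chr16:23890845-23891094 (minus strand) for Sst, chr13:99900684-99900933 (minus strand) for Cartpt and chr6:7554811-7555060 (plus strand) for Tac1. GENCODE puts the gene starts further upstream, at 23890958 for Sst, 99901091 for Cartpt and 7554879 for Tac1. By that annotation the stretches lie partly or, for Cartpt, wholly within the genes, and distances below hold for the RefSeq start only.
Sst: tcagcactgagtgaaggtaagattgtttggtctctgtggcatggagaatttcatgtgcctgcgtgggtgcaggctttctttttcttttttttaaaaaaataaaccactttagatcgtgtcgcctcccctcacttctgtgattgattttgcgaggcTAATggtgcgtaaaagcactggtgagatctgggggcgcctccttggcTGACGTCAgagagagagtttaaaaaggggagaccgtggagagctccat
Cartpt: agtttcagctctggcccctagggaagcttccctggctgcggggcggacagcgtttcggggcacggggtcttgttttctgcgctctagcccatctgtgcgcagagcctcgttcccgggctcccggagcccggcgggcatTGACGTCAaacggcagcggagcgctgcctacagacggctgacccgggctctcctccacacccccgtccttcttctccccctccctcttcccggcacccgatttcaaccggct
Tac1: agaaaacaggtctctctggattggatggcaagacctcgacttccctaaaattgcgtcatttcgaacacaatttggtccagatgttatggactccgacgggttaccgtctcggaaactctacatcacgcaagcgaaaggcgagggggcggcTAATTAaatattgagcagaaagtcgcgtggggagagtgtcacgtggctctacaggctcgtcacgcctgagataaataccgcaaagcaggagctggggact
The Sst stretch had 1 response element, whose first base lay 48 bases before the start, and 1 TAAT core. Cartpt, whose level went the other way, also had 1 response element, 112 bases before the start, and no TAAT core. Tac1 had no response element and 2 overlapping cores that read TAATTA. TGACGTCA is its own reverse complement and was found in 508 of 32851 promoter stretches of this length (1.55%), and the TAAT core on either strand in 18041 (54.9%). A match describes these letters only.

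The Isl1CKO library held 86086781 UMIs and the control library 48685758. Median depth was 7780.5 UMIs in Sst-low Hhex cells and 7754.5 in control Hhex Sst cells, so both groups were read about equally deeply. tdTomato was counted in 369 of the 370 Sst-low Hhex cells, with a median of 61 UMIs, against a median of 10 in control Hhex Sst cells. The mitochondrial share had a median of 1.63% in Sst-low Hhex cells and 0.716% in control Hhex Sst cells. Of the Sst-low Hhex cells 79.5% had Xist and no Y-linked UMI and 7.57% the reverse, against 18.0% and 43.4% of control Hhex Sst cells, although that library is labelled males. Sex and genotype therefore move together, and values within each sex are given below. There were 8 barcodes that passed in both libraries, none of them a Sst-low Hhex cell and 2 of them control Hhex Sst cells.

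Hhex cells were present in both genotypes, but nearly all of those in Isl1CKO islets had little Sst. Hhex was counted in 551 of 8231 Isl1CKO cells (6.69%, exact 95% interval 6.16% to 7.26%) and in 838 of 4219 control cells (19.9%, 18.7% to 21.1%). Of the 551 Isl1CKO Hhex cells, 370 were the Sst-low Hhex cells (67.2%, 63.1% to 71.1%), 131 had low hormones and Irx UMIs (23.8%), 41 had Gcg or insulin at 1% or more (7.44%), and 9 had Sst at 1% or more (1.63%). Of the 838 control Hhex cells, 11 met the rule for Sst-low Hhex cells (1.31%), none had low hormones with Irx UMIs, 11 had Gcg or insulin at 1% or more, and 816 had Sst at 1% or more (97.4%). Cells with at least 5% of UMIs from Sst, with or without Hhex, were 6 of 8231 in Isl1CKO (0.0729%) and 1266 of 4219 in control (30.0%). The hormone classes were set by the rule and are given as a description.

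**Figure D1:**
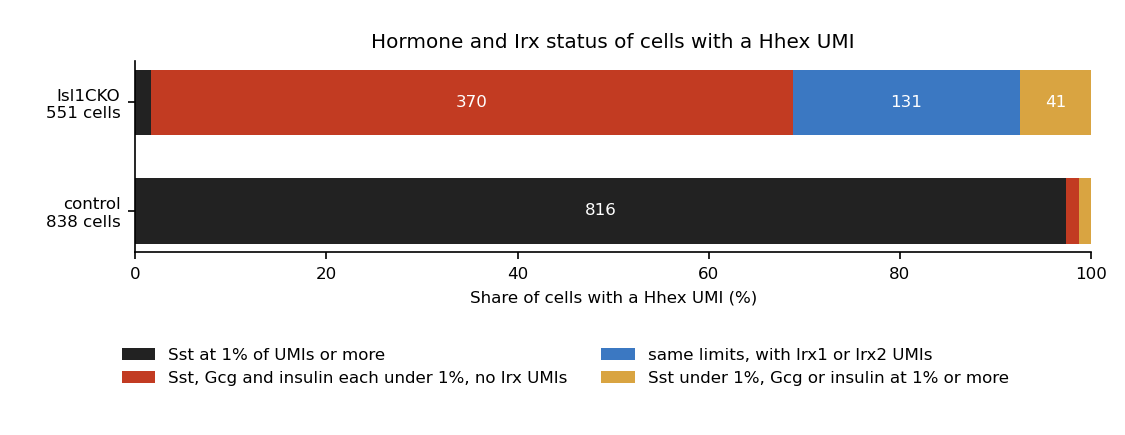
Bars give the share of cells with a Hhex UMI (%) in 4 classes of hormone and Irx status, with Isl1CKO above control and cell numbers inside the larger segments. Sst-low Hhex cells filled 67.2% of the Isl1CKO bar and 1.31% of the control bar, and cells with Sst at 1% or more filled 1.63% and 97.4%.

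Hhex itself rested on few molecules per cell. Of the Sst-low Hhex cells 300 had 1 Hhex UMI, 55 had 2, 10 had 3 and 5 had 4 or more, with a mean of 1.25 and a highest value of 6. Of the control Hhex Sst cells 369 had 1 UMI, 193 had 2, 70 had 3 and 90 had 4 or more, with a mean of 1.92 and a highest value of 9. Summed over cells, Hhex reached 137 CPM (UMIs of a gene per 1000000 UMIs of the group) in Sst-low Hhex cells and 283 CPM in control Hhex Sst cells, a log2 ratio of -1.04 (95% interval -1.20 to -0.89). Since each cell was chosen for a Hhex UMI, this ratio is a description. With unscaled CPM in place of TMM-scaled CPM, which added 0.46 to every log2 ratio of this comparison, it was -0.58.

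Free RNA adds UMIs to cells that do not express a gene, so the Hhex share was set beside that in other cells. Among low-hormone Isl1CKO cells Hhex was counted in 370 of 4205 without Irx UMIs (8.80%) and in 131 of 2910 with Irx UMIs (4.50%). Control gamma cells, with at least 5% of UMIs from Ppy and a median of 12472.5 UMIs, had Hhex in 3 of 432 (0.694%). Isl1CKO acinar cells, with at least 5% of UMIs from acinar genes and a median of 8586 UMIs, had Hhex in 7 of 35, but these cells also held endocrine transcripts and so are no empty reference. In barcodes of 1 to 100 UMIs, which hold mostly free RNA, Hhex stood at 7.33 CPM in Isl1CKO and 31.1 CPM in control. What part of the single Hhex UMIs came from free RNA or doublets was not tested.

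The label's 5 marker genes only partly described the cells. Besides Hhex (chr19:37434810-37440731), they were Pyy (chr11:102106676-102107832), the gut and islet hormone peptide YY, Tac1 (chr6:7554879-7565834), the precursor of the tachykinin substance P, Ly6h (chr15:75551268-75567255), a membrane-anchored Ly6 protein, and Unc5b (chr10:60762593-60831581), a netrin receptor, all on GRCm38. Pyy was counted in 50 of the 370 Sst-low Hhex cells (13.5%), Tac1 in 52 (14.1%), Ly6h in 76 (20.5%) and Unc5b in 48 (13.0%). None of these 4 was counted in 207 cells (55.9%), and 1 cell had all 4. Pyy and Tac1 were counted together in 8 cells. The deletion of Isl1 rests on the genotype label, because 3′ counts do not show whether the floxed part is gone: Isl1 was still counted in 86.5% of the Sst-low Hhex cells, against 96.7% of control Hhex Sst cells.

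Hormones were much lower in Sst-low Hhex cells. Sst stood at 82.1 CPM in Sst-low Hhex cells and 160390 CPM in control Hhex Sst cells, and was fixed by the rule. Pyy stood at 304 CPM in Sst-low Hhex cells and 117779 CPM in control Hhex Sst cells, a log2 ratio of -8.60 (-8.69 to -8.51). Ppy, the pancreatic polypeptide gene, stood at 43.6 CPM in Sst-low Hhex cells and 60521 CPM in control Hhex Sst cells (log2 ratio -10.43). Of the control Hhex Sst cells, 610 of 722 had another hormone at 1% of UMIs or more, which the rule left unrestricted in control, and free RNA of that library held Pyy at 65537 CPM and Ppy at 68842 CPM. The part of free RNA in these control values was not tested. Iapp, the amylin precursor, was also lower, at 13449 CPM in Sst-low Hhex cells and 61389 CPM in control Hhex Sst cells (log2 ratio -2.19). It was counted in 93.2% of Sst-low Hhex cells, with a median of 0.45% of the UMIs of a cell and a highest value of 11.9%. Free RNA of the Isl1CKO library held Iapp at 13330.5 CPM, close to its level in the cells.

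Across genes, 11217 reached 5 CPM in at least 1 of the 2 sums. A gene was called higher or lower when the sums differed at least 2-fold and the 95% interval of the ratio excluded 1. In Sst-low Hhex cells 1111 genes were higher (9.90%) and 1365 lower (12.2%). Counts within gene lists in this comparison are descriptions to be set beside these shares. Over all measured genes the log2 ratio had a median of -0.03. With unscaled CPM the split was 2351 higher and 609 lower, so the balance of directions depends on the scaling.

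Delta cell genes were lower in Sst-low Hhex cells almost throughout. Of 12 listed delta genes 11 were measured, 10 were lower and none was higher. Their median was -2.15 on the log2 scale, with Sst and Hhex among them fixed by the rule. Rbp4, a retinol carrier rich in mouse delta cells, had 199 CPM in Sst-low Hhex cells and 13959 CPM in control Hhex Sst cells (log2 ratio -6.13, -6.25 to -6.02). Ghsr, the ghrelin receptor through which ghrelin acts on delta cells, was represented by 1 UMI in Sst-low Hhex cells and 114 in control Hhex Sst cells. Spock3, a matrix proteoglycan gene, had 1 UMI in Sst-low Hhex cells and 338 in control Hhex Sst cells. Ptprz1, a receptor phosphatase, had 14.2 CPM in Sst-low Hhex cells and 168 CPM in control Hhex Sst cells (log2 ratio -3.53). Ffar4, a long-chain fatty acid receptor, was 2.15 log2 units lower. Casr, the calcium-sensing receptor, and Pcsk1, a prohormone convertase, had log2 ratios of -1.46 and -1.59. Crhr2 had a log2 ratio of -0.91 and was not called. Rbp4 was counted in 185 of the 370 Sst-low Hhex cells, and free RNA of the Isl1CKO library held it at 405 CPM, above its level in these cells.

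**Figure D2:**
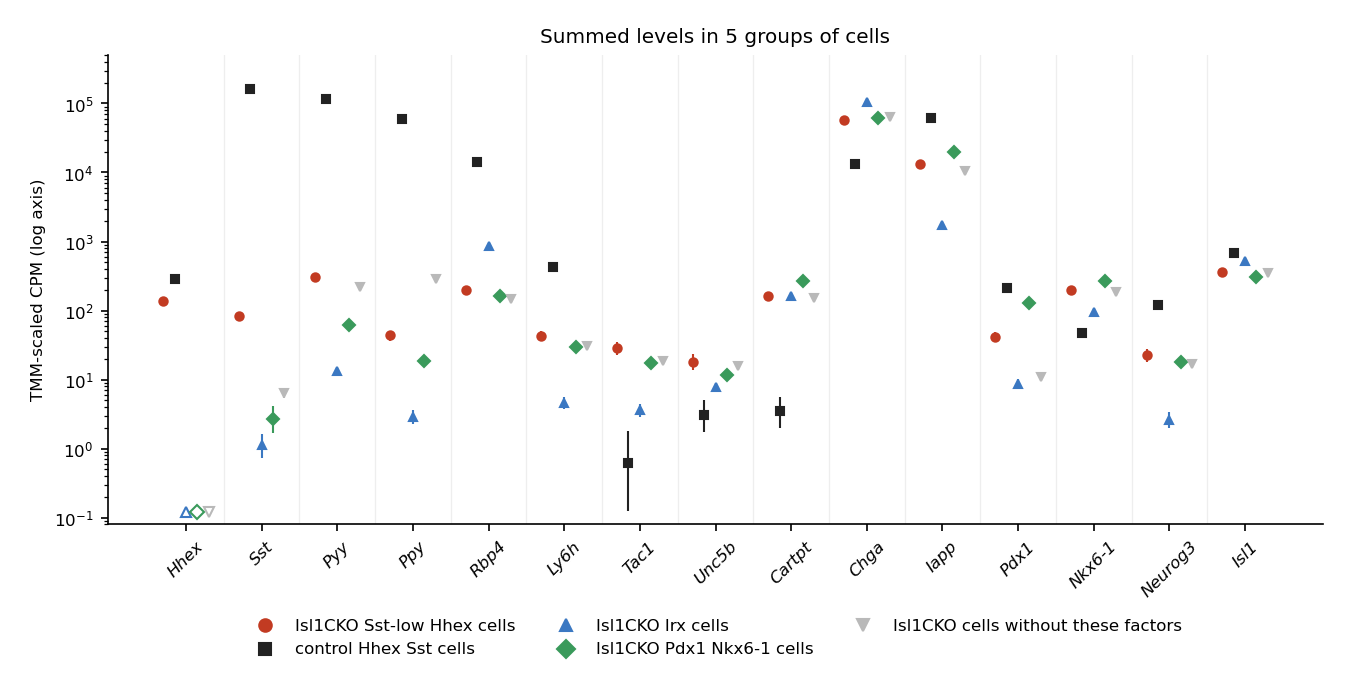
Points give the TMM-scaled CPM (log axis) of 15 genes summed over each of 5 groups of cells, with Sst-low Hhex cells first, lines for 95% Poisson intervals and open symbols for 0 UMIs. Rbp4 is at 199 CPM in Sst-low Hhex cells and 13959 CPM in control Hhex Sst cells, whereas Cartpt is at 163 CPM and 3.47 CPM.

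Other peptide genes were mixed. Of 16 listed neuropeptides 5 were measured, with Cartpt higher, Iapp, Pomc and Pdyn lower and Calca neither, and the median log2 ratio was -1.41. Of 3 measured gut hormone genes 2, Gcg and Sct, were lower and none was higher. Gcg was limited by the rule in Sst-low Hhex cells and not in control Hhex Sst cells. Of the tachykinin genes and receptors 1 was measured. That gene, Tac1, had 96 UMIs (28.5 CPM) in Sst-low Hhex cells and 3 UMIs (0.613 CPM) in control Hhex Sst cells, a log2 ratio of 5.14 (3.95 to 7.84). Cartpt, the precursor of the neuropeptide CART, had 163 CPM in Sst-low Hhex cells and 3.47 CPM in control Hhex Sst cells (5.47, 4.86 to 6.34), and was counted in 119 of the 370 Sst-low Hhex cells (32.2%) and in 1.94% of control Hhex Sst cells. Unc5b was higher, with 18.1 CPM in Sst-low Hhex cells and 3.07 CPM in control Hhex Sst cells (2.49). Ly6h was lower, with 43.0 CPM in Sst-low Hhex cells and 432 CPM in control Hhex Sst cells (-3.32). So of the 5 marker genes 2 were higher and 3 lower than in control Hhex Sst cells. In free RNA of the Isl1CKO library Cartpt stood at 150 CPM, Pyy at 145 CPM, Tac1 at 15.6 CPM, Ly6h at 21.0 CPM and Unc5b at 6.35 CPM, so that Cartpt was about as high in free RNA as in the cells.

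Secretory granule proteins did not change as a block. Of 12 measured genes of prohormone processing and granins, 3 were higher, 2 lower and 7 neither. Chromogranin A (Chga) had 58047 CPM in Sst-low Hhex cells and 13382 CPM in control Hhex Sst cells (log2 ratio 2.12), and took a median of 5.20% of the UMIs of a Sst-low Hhex cell, against 0.866% of those of a control Hhex Sst cell. Chromogranin B (Chgb) had 34704 CPM in Sst-low Hhex cells and 10021 CPM in control Hhex Sst cells (1.79). Vgf, a granin-like precursor, had 112 UMIs in Sst-low Hhex cells and 6 in control Hhex Sst cells (4.55). Secretogranin II (Scg2) was lower, with 301 CPM in Sst-low Hhex cells and 7304 CPM in control Hhex Sst cells (-4.60). The convertase Pcsk2 and carboxypeptidase Cpe had log2 ratios of 0.06 and 0.27. The Isl1CKO free RNA held Chga at 58798 CPM, close to the level in the cells, and Vgf at 42.7 CPM, above the 33.2 CPM in Sst-low Hhex cells. The part of free RNA in these values was not tested.

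Of 20 islet transcription factors 18 were measured in this comparison, with 1 higher, 6 lower and 11 neither. Nkx6-1, a factor of beta cells and their progenitors, was the higher one, with 197 CPM in Sst-low Hhex cells and 47.4 CPM in control Hhex Sst cells (log2 ratio 2.05, 1.83 to 2.27), and it was counted in 69.2% of Sst-low Hhex cells and 18.0% of control Hhex Sst cells. Free RNA held Nkx6-1 at 145 CPM in Isl1CKO and 39.4 CPM in control, and its part in these values was not tested. Pdx1, which activates Sst and Ins genes, was lower, with 41.2 CPM in Sst-low Hhex cells and 212 CPM in control Hhex Sst cells (-2.35, -2.63 to -2.10). Mlxipl, the glucose-responsive factor ChREBP, had a log2 ratio of -1.95. Hhex, Etv1 and St18 lay near the limit of the call, at -1.04, -1.14 and -1.10, and were -0.58, -0.68 and -0.64 with unscaled CPM. The pan-endocrine factors Pax6, Neurod1 and Nkx2-2 had log2 ratios of 0.62, 0.73 and 0.99 and Rfx6 and Foxa2 of -0.07 and 0.33, none of them called. With unscaled CPM, which adds 0.46, Pax6, Neurod1 and Nkx2-2 were more than 2-fold higher, so their status depends on the scaling. Isl1 had 361 CPM in Sst-low Hhex cells and 692 CPM in control Hhex Sst cells (-0.94, -1.03 to -0.84), just short of 2-fold. Its unscaled level in control Hhex Sst cells was 503 CPM.

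Of the 10 listed factors known to act at the somatostatin gene, all were measured, with Pdx1 and Hhex lower and none higher. Hhex was fixed by the rule, and over all measured genes 12.2% were lower and 9.90% higher. Creb1, which binds the response element printed above, had a log2 ratio of -0.57, and its relatives Atf1 and Crem had 0.01 and -0.57. Pknox1 and Meis2, partners of homeodomain factors, had 0.06 and -0.99. LIM-domain partners were mixed: the adaptor Ldb1 had 0.89 and was not called, Lmo4 and Lhx1 were higher at 2.50 and 2.40, with Lmo4 at 22.8 CPM in Sst-low Hhex cells and 23.3 CPM in Isl1CKO free RNA, and Lmo3 was lower with 2 UMIs in Sst-low Hhex cells and 104 in control Hhex Sst cells. With unscaled CPM Ldb1 was more than 2-fold higher.

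The list of endocrine progenitor genes was mixed, with Neurog3 lower. Of 14 listed, 12 were measured, 5 were higher, with cell cycle and antiproliferative genes among them, and 2 lower. Neurog3, the factor that starts endocrine commitment, had 22.5 CPM in Sst-low Hhex cells and 119 CPM in control Hhex Sst cells (log2 ratio -2.38, -2.76 to -2.05), and its target Cbfa2t3 was also lower (-1.92). Fev, expressed downstream of Neurog3, had 332 CPM in Sst-low Hhex cells and 89.7 CPM in control Hhex Sst cells (1.89). Sox4, a progenitor factor, had 319 CPM in Sst-low Hhex cells and 107 CPM in control Hhex Sst cells (1.57). Free RNA held Fev at 257 CPM in Isl1CKO and 54.0 CPM in control, and Sox4 at 200 CPM and 49.9 CPM. Its part in the Fev and Sox4 values was not tested. The cell cycle inhibitors Cdkn1a and Cdkn1c and the antiproliferative Btg2 had log2 ratios of 2.60, 1.89 and 1.86. Of 12 pancreatic progenitor genes 9 were measured, with Vim (3.62) and Dcdc2a (1.48) higher and Sox9 lower, at 5.93 CPM in Sst-low Hhex cells and 50.7 CPM in control Hhex Sst cells. Without cells holding acinar, immune or Krt19 transcripts, described below, Vim was at 3.39 and Sox9 had 2 UMIs in place of 20.

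**Figure D3:**
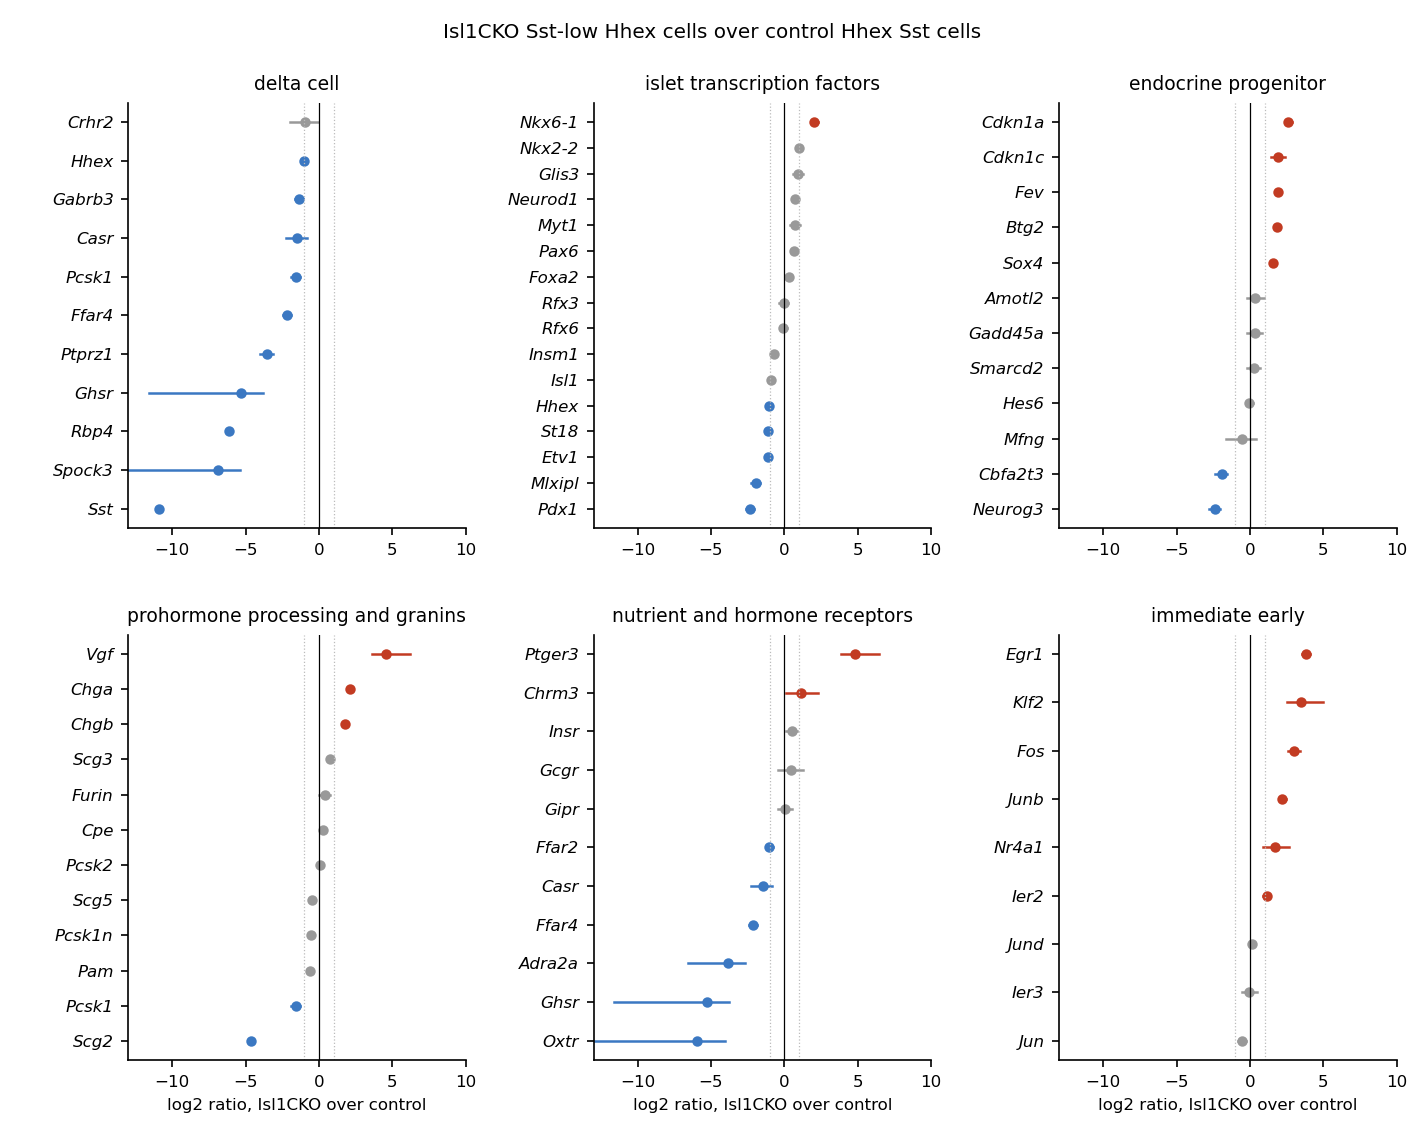
Points give the log2 ratio of Sst-low Hhex cells over control Hhex Sst cells for measured and reported genes of 6 gene lists, with exact 95% counting intervals as lines. Delta cell genes lie left of 0, with Rbp4 at -6.13, while Chga at 2.12, Vgf at 4.55 and Ptger3 at 4.78 lie right of 0. Red marks genes called higher, blue genes called lower and grey the others.

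Receptors and excitability genes differed in both directions. Of 11 measured receptors, 2 were higher and 6 lower in Sst-low Hhex cells. Ptger3, a prostaglandin E2 receptor, had 132 UMIs in Sst-low Hhex cells and 6 in control Hhex Sst cells (log2 ratio 4.78, 3.84 to 6.47). Its level was 39.1 CPM in Sst-low Hhex cells and 47.9 CPM in free RNA of that library. Oxtr, the oxytocin receptor, had 0 UMIs in Sst-low Hhex cells and 91 in control Hhex Sst cells, at least 20.9-fold lower against a floor of 3 UMIs. Adra2a, an inhibitory adrenergic receptor, had 3 UMIs in Sst-low Hhex cells and 83 in control Hhex Sst cells. Among 17 measured excitability and exocytosis genes, 4 were higher, 3 lower and 10 neither, where 9.90% of all measured genes were higher and 12.2% lower. Abcc8, the sulfonylurea receptor of the ATP-sensitive potassium channel, had 3.85 CPM in Sst-low Hhex cells and 453 CPM in control Hhex Sst cells (-6.77). The sodium channel Scn9a (-3.79) and the vesicle GTPase Rab3a (-1.45) were lower, while the calcium channel Cacna1d (1.33) was higher. Monoamine genes were mixed too: Ddc, the aromatic amino acid decarboxylase, and the vesicular transporter Slc18a1 were higher at 1.55 and 4.04, while Th, tyrosine hydroxylase, had 0 UMIs in Sst-low Hhex cells and 54 in control Hhex Sst cells.

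Immediate early genes, which cells switch on within minutes of stimulation, were higher in 6 of 9 measured cases in Sst-low Hhex cells. Egr1 had 399 CPM in Sst-low Hhex cells and 28.0 CPM in control Hhex Sst cells (log2 ratio 3.82), and Fos and Junb had log2 ratios of 2.98 and 2.23. Egr1 was also in free RNA of the Isl1CKO library at 195 CPM, against 14.4 CPM in control free RNA. The part of free RNA in these values was not tested.

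Other genes were ranked by their ratio among those with at least 20 CPM and 20 UMIs in 1 of the sums. The lowest in Sst-low Hhex cells, apart from Sst, Ppy, Gcg and Pyy, were Mest, an imprinted gene with 0 UMIs in Sst-low Hhex cells and 618 in control Hhex Sst cells, Arg1, Ptn, Dpp6, Gap43, Spock3, Abcc8 and Cacna2d2. Arg1, the urea cycle enzyme arginase, had 2.37 CPM in Sst-low Hhex cells and 874 CPM in control Hhex Sst cells (log2 ratio -8.36). Ptn and Gap43, a growth factor and a growth cone protein, had log2 ratios of -7.68 and -7.02. Dpp6, a potassium channel partner, had a log2 ratio of -7.20.

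Nt5e, an ecto-nucleotidase that makes adenosine, was counted 163 times in Sst-low Hhex cells and 0 times in control Hhex Sst cells, in 113 Sst-low Hhex cells. Its level was 48.3 CPM in Sst-low Hhex cells and 27.2 CPM in Isl1CKO free RNA. Other low-hormone Isl1CKO cells held Nt5e too, as given below. Pde2a, a cyclic nucleotide phosphodiesterase, had 72 UMIs in Sst-low Hhex cells and 0 in control Hhex Sst cells. The other 10 highest genes were digestive enzymes and related acinar genes (Try5, Cpb1, Zg16, Try10, Ctrb1, Ctrc) and immune genes (Cd74, Lyz2, H2-Ab1, H2-Aa). These sat in a few cells: of 13223 UMIs of the acinar list in Sst-low Hhex cells, 12083 (91.4%) were in 9 cells with at least 1% acinar UMIs, and of 1600 UMIs of the immune list, 1576 (98.5%) were in 3 cells with at least 10 such UMIs. Krt19, a duct keratin, was counted in 7 Sst-low Hhex cells. In all 18 of the 370 Sst-low Hhex cells had such transcripts, against 3 of 722 control Hhex Sst cells. Without them, a step chosen after seeing the data, 352 Sst-low Hhex cells remained and the same ranking gave Nt5e, Pde2a, S100z, Otud7a, Wfdc10, Arrdc4, Cartpt, Tac1, Cldn5, Try5, Tenm1 and Rarres1. Arrdc4, an arrestin relative, then had 401 CPM in Sst-low Hhex cells and 9.11 CPM in control Hhex Sst cells (log2 ratio 5.43), and Tac1 had 5.18.

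The differences were examined within each sex, by comparing 294 Sst-low Hhex cells with 130 control Hhex Sst cells that had Xist and no Y-linked UMI, and 28 with 313 that had the reverse. Pyy had log2 ratios of -8.41 in Xist cells and -7.88 in Y-linked cells, and Rbp4 had -6.59 and -4.93. In Xist cells Tac1 had 73 UMIs in Sst-low Hhex cells and 0 in control Hhex Sst cells, and Cartpt had 401 and 0. In Y-linked cells their log2 ratios were 4.58 and 6.27. Nkx6-1 had 2.41 in Xist cells and 2.54 in Y-linked cells. Chga had 2.32 and 1.95, Pdx1 had -2.44 and -1.77, and Neurog3 had -2.43 and -1.23. Unc5b had 2.04 in Xist cells, and in Y-linked cells it had 0 UMIs in Sst-low Hhex cells and 5 in control Hhex Sst cells, too few for a direction. Egr1 had 3.85 and 1.01, Cdkn1a 2.63 and 1.03, and Sox4 1.86 and 0.70, so these 3 were nearer to 0 in Y-linked cells. The difference between the sexes was not tested.

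**Figure D4:**
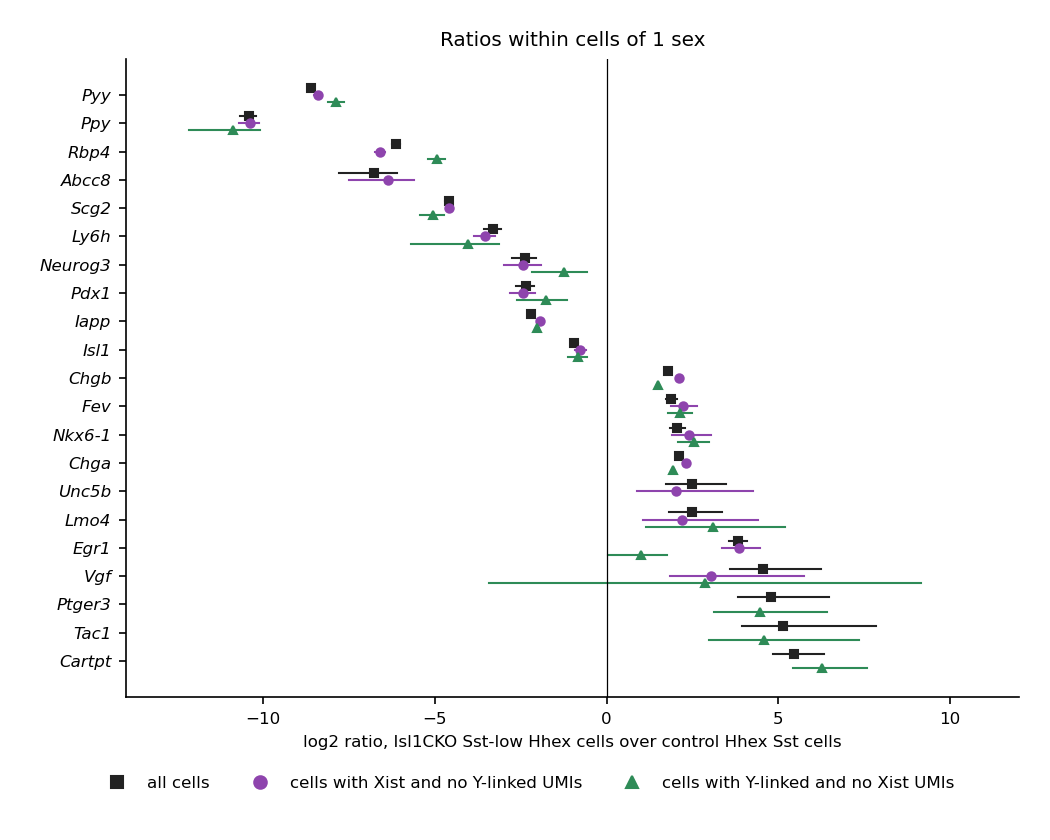
Points give the log2 ratio of Sst-low Hhex cells over control Hhex Sst cells for all cells, for cells with Xist and no Y-linked UMI, and for cells with Y-linked and no Xist UMI, with 95% counting intervals cut at the edges of the plot and no point where a group has 0 UMIs. Nkx6-1, Fev and Chga lie right of 0 and Pyy, Rbp4 and Ly6h left of 0 in all 3 sets.

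Within the Sst-low Hhex cells the hormones were concentrated in few cells, while the other markers were spread thinly. Of 1025 Pyy UMIs in 50 cells, 5 cells held 63.2%, and 1 cell held 173. Of 277 Sst UMIs in 17 cells, 5 cells held 84.1%, with 117 in the highest. Of 147 Ppy UMIs in 32 cells, 5 cells held 66.7%, and of 117 Gcg UMIs in 42 cells 1 cell held 64. The highest Sst share in any of these cells was 0.715% and the highest Pyy share 1.45%, against medians of 12.0% and 8.21% in control Hhex Sst cells. Tac1 had 96 UMIs in 52 cells with at most 5 in a cell, Ly6h 145 in 76 with at most 8, and Unc5b 61 in 48 with at most 4. Pyy was counted in 11 of the 17 cells with Sst and in 17 of the 32 cells with Ppy.

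Hormone levels differed between the 70 Sst-low Hhex cells with at least 2 Hhex UMIs and the 300 with 1. Pyy was at 747 CPM in the cells with at least 2 and 189 CPM in those with 1, Sst at 340 CPM and 14.9 CPM, and Ppy at 119 CPM and 23.9 CPM. Gcg went the other way, at 8.62 CPM and 41.5 CPM, and 1 cell held 64 of its UMIs. Ly6h was at 61.7 CPM and 38.1 CPM, Tac1 at 24.4 CPM and 29.5 CPM, and Nkx6-1 at 144 CPM and 210.3 CPM. Since 5 cells held most of the Sst and Pyy UMIs, these differences rest on few cells. The 26 cells with at least 3 Pyy UMIs, a set chosen on its values, had Ly6h at 132 CPM and Rbp4 at 484 CPM, against 36.1 CPM and 177 CPM in the other 344, and Cartpt at 49.6 CPM against 171 CPM.

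Cells on either side of the limits were as follows. The 300 Sst-low Hhex cells with 1 Hhex UMI had Pyy at 189 CPM, Tac1 at 29.5 CPM, Ly6h at 38.1 CPM, Unc5b at 16.8 CPM and Ttr at 7358 CPM. The 3835 Isl1CKO cells that met every other limit but had no Hhex UMI had Pyy at 171 CPM, Tac1 at 17.8 CPM, Ly6h at 29.4 CPM, Unc5b at 14.5 CPM and Ttr at 12474 CPM. At the Sst limit, 2 cells lay between 0.5% and 1% and 1 cell between 1% and 2%. At the insulin limit 11 cells lay on each side, between 0.5% and 1% and between 1% and 2%. No cell lay between 0.5% and 2% for Gcg. The 40 Hhex cells left out for 1 Irx UMI had Pyy at 135 CPM, Tac1 at 62.2 CPM, Ly6h at 48.7 CPM, Unc5b at 18.9 CPM and Ttr at 24769 CPM. The 91 left out for 2 or more Irx UMIs had Pyy at 19.8 CPM, Tac1 at 1.80 CPM, Ly6h at 6.30 CPM, Unc5b at 9.01 CPM and Ttr at 59019 CPM.

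Sst-low Hhex cells were next set beside 2 other kinds of Isl1CKO cells with low hormones. Irx cells (2779 cells, median 8759 UMIs) had Irx1 or Irx2, alpha cell factors, and no Hhex. Pdx1 Nkx6-1 cells (743 cells, median 9418 UMIs) had both beta cell factors and neither Hhex nor Irx. All 3 come from the same library, so dissociation, sequencing and free RNA are shared.

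Against Irx cells, Sst-low Hhex cells had less of the alpha cell programme and more of the marker genes. Of 10821 measured genes 619 were higher (5.72%) and 332 lower (3.07%) in Sst-low Hhex cells, and 881 and 201 with unscaled CPM. Ttr, transthyretin, abundant in alpha cells, had 7607 CPM in Sst-low Hhex cells and 97287 CPM in Irx cells (log2 ratio -3.68). Of 10 measured alpha cell genes 8 were lower and 1 higher, Irx1 and Irx2 among the lower by the rule, and among the rest Slc38a5, an amino acid transporter needed for alpha cell growth, had -4.83. Sstr2, a somatostatin receptor of alpha cells, had 3 UMIs in Sst-low Hhex cells and 1260 in Irx cells (-5.47). The gut hormone genes Sct, Cck and Ghrl, for secretin, cholecystokinin and ghrelin, had log2 ratios of -4.93, -3.58 and -3.46.

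Besides Hhex, which the rules fixed, the other 4 marker genes were higher than in Irx cells. Pyy had 304 CPM in Sst-low Hhex cells and 13.3 CPM in Irx cells (log2 ratio 4.51), and was counted in 13.5% of Sst-low Hhex cells and 2.66% of Irx cells. Tac1 had 28.5 CPM in Sst-low Hhex cells and 3.60 CPM in Irx cells (2.98), and Ly6h and Unc5b had log2 ratios of 3.21 and 1.23. Iapp had 13449 CPM in Sst-low Hhex cells and 1764 CPM in Irx cells (2.93). Neurog3 (3.09), Pdx1 (2.23), Nkx6-1 (1.04) and Chgb (2.13) were higher too. Cartpt did not separate them, with a log2 ratio of 0.01, and Vgf was lower (-1.75).

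Pdx1 Nkx6-1 cells were much nearer. Of 10759 measured genes 163 were higher (1.52%) and 101 lower (0.939%) in Sst-low Hhex cells, and the higher number was 78 without cells holding acinar, immune or Krt19 transcripts. Within Xist cells 138 genes were higher and 53 lower, and 91 and 19 of them were among the 163 and the 101. Pyy had 304 CPM in Sst-low Hhex cells and 61.6 CPM in Pdx1 Nkx6-1 cells (log2 ratio 2.30, 2.14 to 2.46), Ppy had 1.25, and Sst had 277 UMIs in Sst-low Hhex cells and 21 in Pdx1 Nkx6-1 cells. These hormone ratios rest on few cells, since 5 Sst-low Hhex cells held 63.2% of the Pyy UMIs. For Ppy and Sst the top 5 held 66.7% and 84.1%, and the counting intervals do not cover this spread. Tac1, Ly6h, Unc5b and Cartpt had log2 ratios of 0.72, 0.55, 0.64 and -0.70 and were not called. Apart from Hhex, Pdx1 and Nkx6-1, on which the rules chose cells, 1 of the 17 measured islet transcription factors was called, Mlxipl at -1.17. None of the 12 granin and processing genes, 11 endocrine progenitor genes and 16 excitability genes measured was called. Lower genes included Ptger3, with 39.1 CPM in Sst-low Hhex cells and 108 CPM in Pdx1 Nkx6-1 cells (-1.45), Slc2a2, the GLUT2 glucose transporter (-1.26), and Gast, the gastrin gene (-1.90). Gast did not hold in both sexes, with 0.26 in Xist cells against -0.98 in Y-linked cells.

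The low-hormone Isl1CKO cells with no Hhex, no Irx and not both of Pdx1 and Nkx6-1 (3092 cells, median 6307 UMIs) also held Pyy, Tac1 and Ly6h. Pyy had 304 CPM in Sst-low Hhex cells and 216.5 CPM in these cells, Tac1 28.5 CPM and 18.5 CPM, and Ly6h 43.0 CPM and 30.3 CPM. Cartpt had 163 CPM in Sst-low Hhex cells and 151 CPM in these cells, and Ppy had 43.6 CPM in Sst-low Hhex cells and 284 CPM in these cells. The summed Pyy and Ppy include single hormone-rich cells, since neither hormone was limited: the highest shares of a cell's UMIs were 1.45% for Pyy and 0.327% for Ppy in Sst-low Hhex cells, against 19.0% and 31.6% in these cells. Genes ranked highest over control were shared as well. Nt5e had 48.3 CPM in Sst-low Hhex cells, 65.6 CPM in Pdx1 Nkx6-1 cells, 56.1 CPM in these cells and 5.06 CPM in Irx cells. In the same order Pde2a had 21.3, 19.7, 20.1 and 8.49 CPM, and S100z 59.3, 95.2, 70.2 and 9.20 CPM. Arrdc4 had 399.5, 398.7, 371.2 and 319.3 CPM.

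Shares of cells with a UMI were compared at equal depth by thinning each cell to 3000 UMIs, which left 362 Sst-low Hhex cells, 718 control Hhex Sst cells, 2695 Irx cells, 738 Pdx1 Nkx6-1 cells and 2509 of the 3092 cells without these factors. Tac1 was then counted in 7.46% of Sst-low Hhex cells (95% exact interval 4.97% to 10.7%) and 0% of control Hhex Sst cells, against 14.1% and 0.277% before thinning. In Irx cells it was counted in 0.891%, in Pdx1 Nkx6-1 cells in 4.34% and in the cells without these factors in 4.42%. Pyy was counted in 9.94% of Sst-low Hhex cells (7.06% to 13.5%), 5.28% of Pdx1 Nkx6-1 cells and 3.99% of the cells without these factors, and Ly6h in 10.2% (7.30% to 13.8%), 6.78% and 6.50%. Unc5b did not set the cells apart: it was counted in 4.70% of Sst-low Hhex cells (2.76% to 7.41%), 4.20% of Pdx1 Nkx6-1 cells and 4.50% of the cells without these factors. Nkx6-1 was counted in 42.5% of Sst-low Hhex cells and 37.1% of the cells without these factors, and Pdx1 in 13.3% and 3.35%. Before thinning, 83 of the 370 Sst-low Hhex cells had both Pdx1 and Nkx6-1. The rule kept such cells out of the cells without these factors, so these differences were partly set by the rule. In the 35 Isl1CKO acinar cells, unthinned, Pyy and Tac1 were each counted in 8.57%, Ly6h in 2.86% and Unc5b in 11.4%, against 13.5%, 14.1%, 20.5% and 13.0% of Sst-low Hhex cells.

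**Figure D5:**
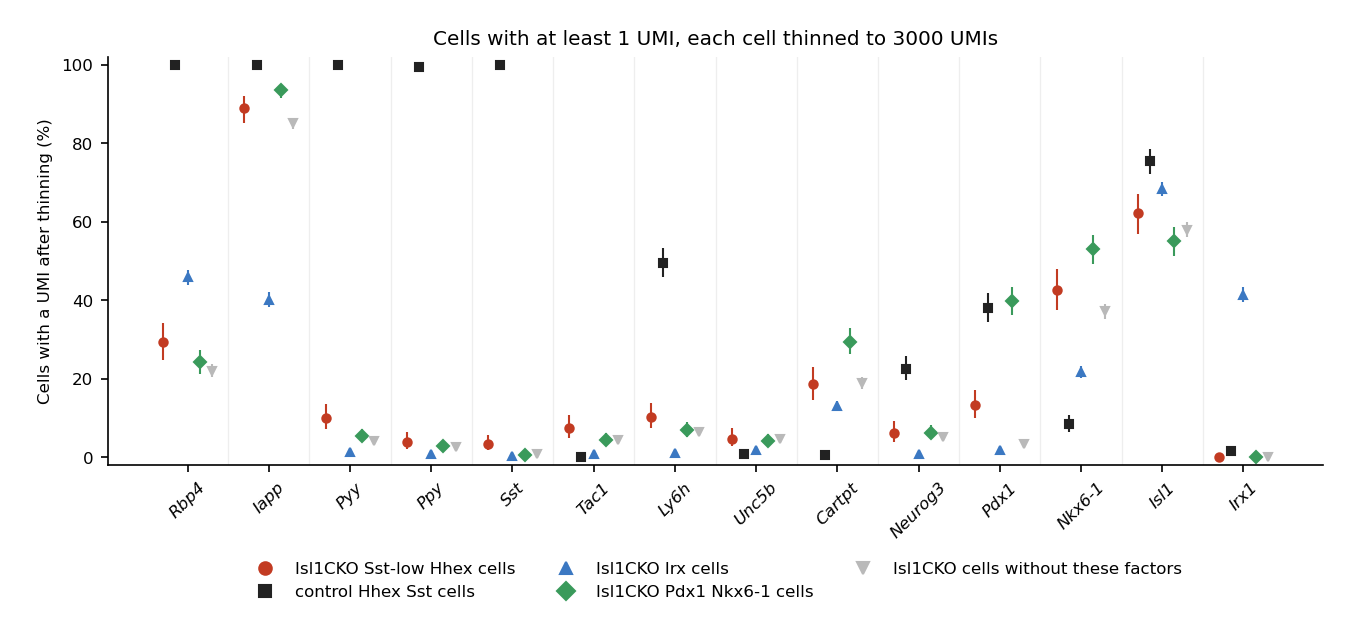
Points give the share of cells (%) with at least 1 UMI of each gene after every cell was thinned to 3000 UMIs, in 5 groups of cells with 95% exact intervals. Sst-low Hhex cells are at 9.94% for Pyy, 7.46% for Tac1 and 42.5% for Nkx6-1, and control Hhex Sst cells at 0% for Tac1.

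A few Hhex cells crossed the pattern in each genotype. The 9 Isl1CKO Hhex cells with Sst at 1% or more had Sst at 58523 CPM, Pyy at 70023 CPM, Rbp4 at 4019 CPM and Ly6h at 352 CPM and 0 UMIs of Tac1 and Unc5b. On the same unscaled measure, control Hhex Sst cells had Rbp4 at 10152 CPM and Ly6h at 314 CPM. The 9 Isl1CKO cells had Chga at 24545 CPM and Isl1 at 534 CPM, and tdTomato was counted in all 9. The 11 control cells that met the rule for Sst-low Hhex cells had Pyy at 107191 CPM and Ppy at 104230 CPM, so they were not without hormones, and had 0 UMIs of Ly6h, Unc5b and Cartpt. Control gamma cells had 1 Tac1 UMI in 432 cells.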

How the data were processed

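Single-cell RNA was counted in 2 libraries, 1 per genotype. The deposited counts are whole-number UMI counts per gene and barcode, unfiltered and not normalized, of 46984 features. GRCm38.p6, Seurat 4.3.0.1, STAR 2.7.3a and STARsolo are named in the submitters' processing notes, with no settings. Per the labels' protocols, libraries were made with a 10x 3′ kit.

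From these counts, cells were chosen by the limits given in the report, without clustering. No doublet caller was run, and cells of at most 20000 UMIs served as an alternative. UMIs were summed per group and scaled by TMM (edgeR 4.0.16 in R 4.3.3) to Sst-low Hhex cells, whose CPM are plain UMIs per 1000000. CPM of cell subsets and free RNA are unscaled. Log2 ratios used 1 added count, and their intervals are exact conditional 95% intervals of 2 Poisson counts. Shares have exact Clopper-Pearson intervals. Genes with 0 UMIs were bounded against 3 UMIs over the group. Cells are not replicates, so there is no test between groups. The procedure was checked on simulated Poisson counts, which hold no spread between cells, so the check does not cover that spread. Barcodes of 1 to 100 UMIs stood for free RNA.

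The genes named are members of 29 lists, the 5 marker genes, and, for each comparison, the top 12 and bottom 12 by ratio of the genes that reached 20 CPM and 20 UMIs in 1 sum and kept 1 direction under all 4 scalings (TMM, unscaled CPM, DESeq2 1.42.0 size factors, hormone genes left out). The acinar list, the immune genes and Krt19 were used to find other cell types. The cell rule, the lists and the comparisons were chosen with earlier results of these data known, so no pattern here is independent of them. Gene positions are from GENCODE and promoters from RefSeq. Some genes that these rules name are not reported here.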

Additional observations from a re-analysis of the deposited data

How the results depend on the processing

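Of the alternatives for the numbers of genes and cells, 62 values stayed within 1.5 times the reported one and 25 did not. The cause was not tested unless the alternative itself makes it, through fewer cells or another filter. Against control Hhex Sst cells (1111 higher, 1365 lower), cells with Y-linked and no Xist UMIs gave 711 and 565, unscaled CPM 2351 and 609, and a limit of 20 CPM 575 and 760, while control cells with at least 20% Sst gave 800 lower. Against Irx cells (619 higher, 332 lower), a limit of 20 CPM gave 247 and 178 and no filter 1283 and 528. Unscaled CPM gave 201 lower, and leaving hormone genes out of the totals 194. Against Pdx1 Nkx6-1 cells (163 higher, 101 lower), cells with at least 2 Hhex UMIs gave 322 and 224, Y-linked cells 329 and 209, a limit of 20 CPM 50 and 24, and no filter 378 and 168. Xist cells gave 53 lower, thinning to 3000 UMIs 183 lower, and leaving out cells with acinar, immune or Krt19 transcripts 78 higher. The number of Sst-low Hhex cells was 70 with at least 2 Hhex UMIs.

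Of log2 ratios of single genes 1322 stayed within their counting interval, 396 moved more and 19 ratios of called genes changed sign. Sign changes of genes not called were counted among the others. Against control Hhex Sst cells, Xist cells gave Cd74 at -1.48, Lyz2 at -0.48, H2-Ab1 at -2.48 and H2-Aa at -0.89, and leaving out cells of other types gave H2-Ab1 at -0.41. Against Irx cells, Cd74 was at -2.10 and H2-Aa at -0.78 with at least 2 Hhex UMIs, Cd74 at -0.77 in Xist cells, and Cd74 at -0.17 and Pnliprp1 at -0.074 without cells of other types. Against Pdx1 Nkx6-1 cells, Gcg was at -0.61 with at least 2 Hhex UMIs. Xist cells gave Gast at 0.26, Eif2s3y at 0.64 and H2-Ab1 at -1.36, and Y-linked cells gave Eif2s3y at 0.078. Without cells of other types H2-Ab1 was at -1.76, Try10 at -0.46, Cpb1 at -0.39 and Pnliprp1 at -1.14.

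No paired analysis was possible because each genotype has 1 library, which also leaves no replicate to leave out. A genotype difference, a difference between pooled animals and a difference between libraries cannot be told apart. With 300 of 370 cells resting on 1 Hhex UMI, the Hhex status of a single cell is limited by depth. Leaving out cells with acinar, immune or Krt19 transcripts was chosen after seeing the data. The scaling alternatives move all ratios of a comparison alike.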
